A study of Mus musculus with 8 samples.

Results

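The adipogenic transcription factors analysed here are 10 genes, Pparg, Ppara, Ppard, Cebpa, Cebpb, Cebpd, Klf15, Zfp423, Ebf1 and Nr3c1, chosen by name as the factors that commit progenitors to the fat lineage and keep adipocytes differentiated. All 10 were found among the 31053 genes of the count table, each under 1 Ensembl identifier. Their levels were compared by RNA-seq of whole brown adipose tissue (BAT) from 4 WT and 4 Cd36KO mice of strain C57BL6/J, all labelled as 8 weeks old. The labels name the deleted gene and not the kind of deletion. The study describes myeloid-restricted mice, in which Csf1r-driven Cre removes a floxed Cd36 from macrophages and other myeloid cells, as well as germline mice, and ascribes its BAT transcriptome to the former. Its legend for that transcriptome states 8 weeks, as the labels do, while the methods have these mice sacrificed at 10 weeks. In mice of the former kind, adipocytes would keep an intact Cd36 gene. A single column of counts is named as Cd36KO without a number, and its library is referred to as the unnumbered Cd36KO library.

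In adipogenesis, C/EBPβ and C/EBPδ are induced first by hormonal cues, glucocorticoids among them, and they switch on Pparg and Cebpa. PPARγ and C/EBPα then maintain each other's expression and bind near most genes of the mature adipocyte. Zfp423 and Ebf1 act upstream in progenitors, Klf15 and the glucocorticoid receptor Nr3c1 reinforce differentiation, and PPARα and PPARδ drive fatty acid oxidation, for which BAT is specialised.

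Total counts lay between 2679785 and 4097953 per library. Adipocyte genes were abundant although the labels also give the cell type as stromal vascular fraction. Adiponectin (Adipoq) had 2458 to 6294 normalized counts in WT and 3904 to 4400 in Cd36KO libraries, and Ucp1, which uncouples respiration in thermogenic adipocytes, rose from 5347 ± 1246 in WT to 9429 ± 2044 in Cd36KO (SD, n = 4 each, log2 fold change 0.82, DESeq2 adjusted p = 0.00843, edgeR adjusted p = 0.126). A normalized count is a read count divided by the size factor of its library. All 8 libraries held between 772 and 1588 counts of Xist, the RNA of the inactive X chromosome, and of the Y-linked genes Ddx3y, Eif2s3y, Kdm5d and Uty only Ddx3y had reads, 3 in WT replicate 1, while the study's methods state that all mice were male. Cd36 itself averaged 2918 ± 454 in WT libraries and 2087 ± 216 in Cd36KO libraries (SD, n = 4 each). The groups did not overlap, with a lowest WT value of 2412 and a highest Cd36KO value of 2384 (two-sided exact permutation p = 0.0286), and the difference of -0.48 in log2 units did not pass the DESeq2 threshold (adjusted p = 0.0602). WT replicate 1 stood apart, with the highest summed level of the 14 skeletal muscle markers and the lowest WT level of the 12 white fat markers, and the fit was repeated without each library in turn. All 14 muscle markers had negative point estimates, with a median log2 fold change of -2.92, and they summed to 747 to 56982 normalized counts in WT and 198 to 8289 in Cd36KO. At an unadjusted p under 0.05, 7 of the 14 were found, and none passed after adjustment.

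None of the 10 factors passed the DESeq2 threshold of an adjusted p under 0.05, where 2.95% of the 9617 genes with an adjusted p passed, and none passed in edgeR, which called 0.143% of genes, or in limma, which called 0.0461%. At an unadjusted p under 0.05, the same 4 of the 10 were found by each of the 3 tools, namely Zfp423, Pparg and Nr3c1 with lower values in Cd36KO and Cebpb with higher values. This count fell to 1 without WT replicate 2, without the unnumbered Cd36KO library, without Cd36KO replicate 4 or with the replicate block. The share of all genes at that level was 15.6% of the 9617 in DESeq2, 16.1% in edgeR and 11.5% in limma. The point estimates were negative for 7 and positive for 3 of the 10, and their median log2 fold change was -0.31, where the median over all genes tested was -0.01. For Cebpb, Klf15, Zfp423 and Nr3c1 the range of the Cd36KO libraries did not touch that of the WT libraries, and for the other 6 the ranges overlapped. Over all genes whose normalized counts averaged 10 or more, 8.65% had ranges that did not touch, and 10.9% of those averaging 50 or more. In a whole tissue, fewer cells of a type and less RNA per cell cannot be told apart.

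**Figure D1:**
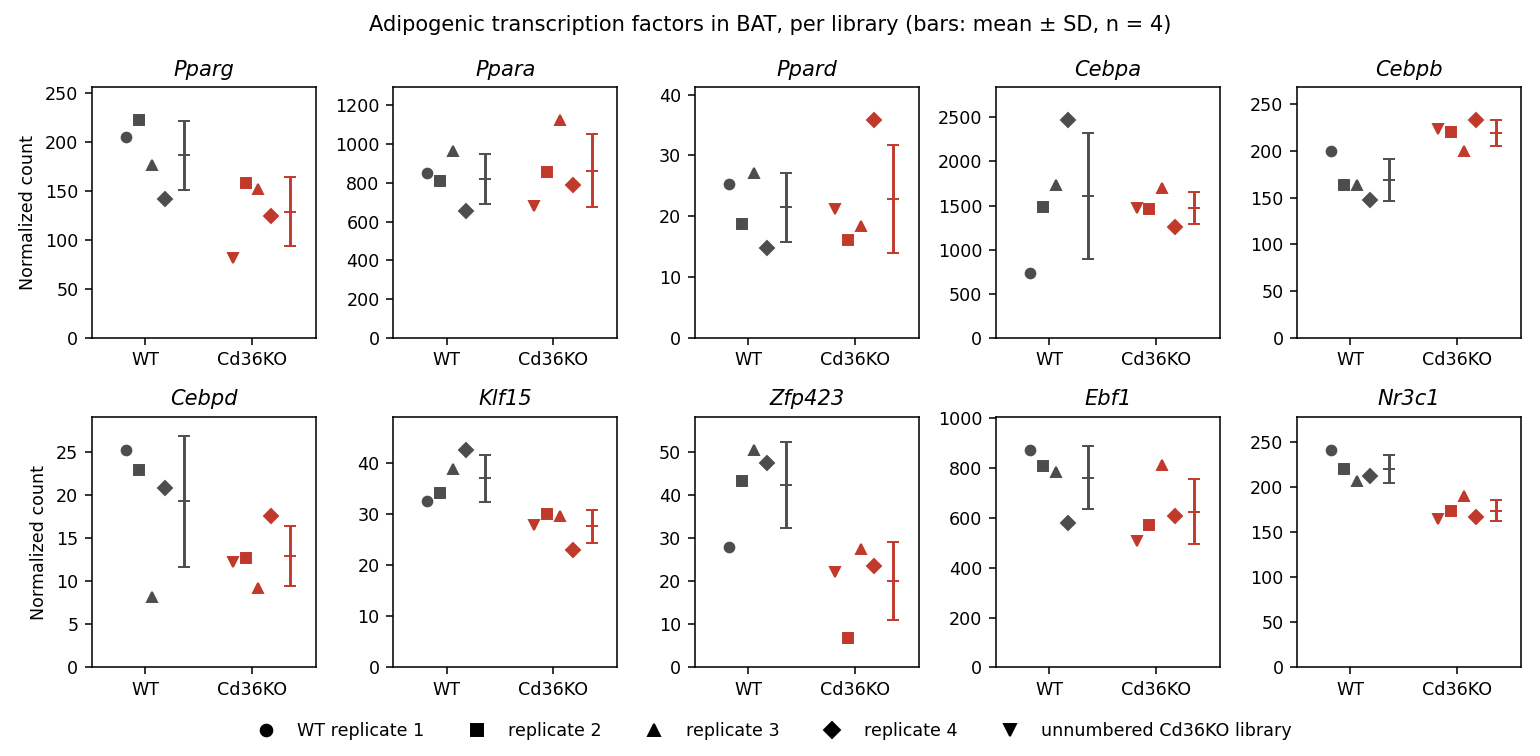
Normalized counts of the 10 adipogenic transcription factors in each library, with the mean and SD of each group (n = 4) beside the points, symbols giving the replicate and every axis starting at 0. The Cd36KO points lie below all WT points for Klf15, Zfp423 and Nr3c1 and above them, by less than 1 normalized count, for Cebpb, while Cebpa spreads from 734 to 2471 in WT alone.

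The PPARs were described first, as the ligand-activated receptors that bind DNA with RXR. Pparg, the receptor without which adipocytes do not form, is ENSMUSG00000000440 on chromosome 6 (115360951 to 115490399, plus strand, build GRCm38, protein-coding). Its normalized counts were 205, 223, 176 and 141 in WT replicates 1 to 4. They were 81.3 in the unnumbered Cd36KO library and 158, 152 and 124 in Cd36KO replicates 2 to 4. All 4 Cd36KO libraries lay under the WT mean, but WT replicate 4 lay among them. The means were 186 ± 35.4 and 129 ± 34.9 (SD, n = 4 each), and the log2 fold change was -0.53 (SE 0.24, 95% interval -1.01 to -0.05, DESeq2 adjusted p = 0.247). An exact permutation test, two-sided and over all 70 arrangements, gave p = 0.0857. The unnumbered Cd36KO library was the lowest, and without it the log2 fold change was -0.37.

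The Pparg gene has several starts, and a count per gene adds up the transcripts from all of them, so that the adipocyte-enriched Pparg2 form and the more widely used Pparg1 form could not be separated here. RefSeq promoter windows of build GRCm38.p6, each running from 250 bases before to 50 bases after a start, were searched for the core of the C/EBP site, TTGCNNAA, on both strands, because C/EBPs act on Pparg in adipogenesis. Both motifs searched were chosen with the expression values known. Of the 10 factors, 8 had windows, 12 in all, and 2 of these 12 held the C/EBP core, where 10.8% of all 32851 windows did. The windows with a match were the last of the 3 Pparg starts and the upstream start of Zfp423. They are shown with the first Pparg start, which held no C/EBP core, and capitals mark each match of that core. The receptor hexamer AGGTCA, searched likewise on both strands, was in 3 of the 12 windows, where 16.3% of all windows held it. These were the first and second Pparg starts and the downstream start of Zfp423. The Pparg windows are chr6:115360894-115361193 and chr6:115421816-115422115 on the plus strand, and the Zfp423 window is chr8:87959546-87959845 on the minus strand. A match is only a run of letters, and binding was not measured.
Pparg, first start: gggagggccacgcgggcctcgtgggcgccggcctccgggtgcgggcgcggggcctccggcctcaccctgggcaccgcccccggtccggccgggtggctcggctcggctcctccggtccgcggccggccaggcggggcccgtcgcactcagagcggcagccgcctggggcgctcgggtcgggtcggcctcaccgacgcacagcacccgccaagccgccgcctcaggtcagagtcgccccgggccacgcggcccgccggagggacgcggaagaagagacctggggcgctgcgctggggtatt
Pparg, last start: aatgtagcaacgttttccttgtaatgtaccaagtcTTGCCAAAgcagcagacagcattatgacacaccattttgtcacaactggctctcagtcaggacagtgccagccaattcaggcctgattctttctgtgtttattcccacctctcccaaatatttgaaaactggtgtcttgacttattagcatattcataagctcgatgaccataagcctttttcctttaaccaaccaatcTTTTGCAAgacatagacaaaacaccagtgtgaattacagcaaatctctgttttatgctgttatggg
Zfp423, upstream start: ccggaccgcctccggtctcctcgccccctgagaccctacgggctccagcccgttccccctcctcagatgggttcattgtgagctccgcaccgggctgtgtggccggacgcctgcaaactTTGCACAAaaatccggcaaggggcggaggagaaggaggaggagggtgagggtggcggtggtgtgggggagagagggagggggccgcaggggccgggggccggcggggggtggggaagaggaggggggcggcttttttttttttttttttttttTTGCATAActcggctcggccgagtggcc
The matches of the last Pparg start began 215 and 16 bases before the start, with the second on the opposite strand, and those of Zfp423 began 131 bases before and at base 23 of the transcript. The window of the last Pparg start was 40.3% G and C, against 80.3% for the first.

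Ppara (ENSMUSG00000022383, chromosome 15, 85734983 to 85802819, plus strand), the receptor that drives fatty acid oxidation genes, had far more reads than Pparg in every library. Its normalized counts were 852, 812, 966 and 656 in the WT replicates. They were 682 in the unnumbered Cd36KO library and 858, 1125 and 789 in the numbered ones. The Cd36KO values thus enclosed all but the lowest WT value. The log2 fold change was 0.07 (SE 0.19, DESeq2 adjusted p = 0.910), and its 95% interval on the linear scale ran from 0.810 to 1.37 times the WT level. Ppard (ENSMUSG00000002250, chromosome 17, 28232700 to 28301474, plus strand), the receptor of the widest tissue distribution, was scarce, at 25.3, 18.7, 27.1 and 14.8 normalized counts in WT. The Cd36KO libraries had 21.2, 16.1, 18.4 and 35.8 in the same order, so that the highest Cd36KO value stood above the WT range and the others within it. Its log2 fold change was 0.12 (SE 0.41), and the interval of 0.622 to 1.89 times the WT level was wide at this depth. Per kilobase of annotated exon, mean levels over the 8 libraries were 220 normalized counts for Ppara, 53.4 for Pparg and 2.95 for Ppard. That order held on the plain counts as well. A level per kilobase assumes that reads scale with exon length, which the sources do not state for this digital mRNA-seq service.

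**Figure D2:**
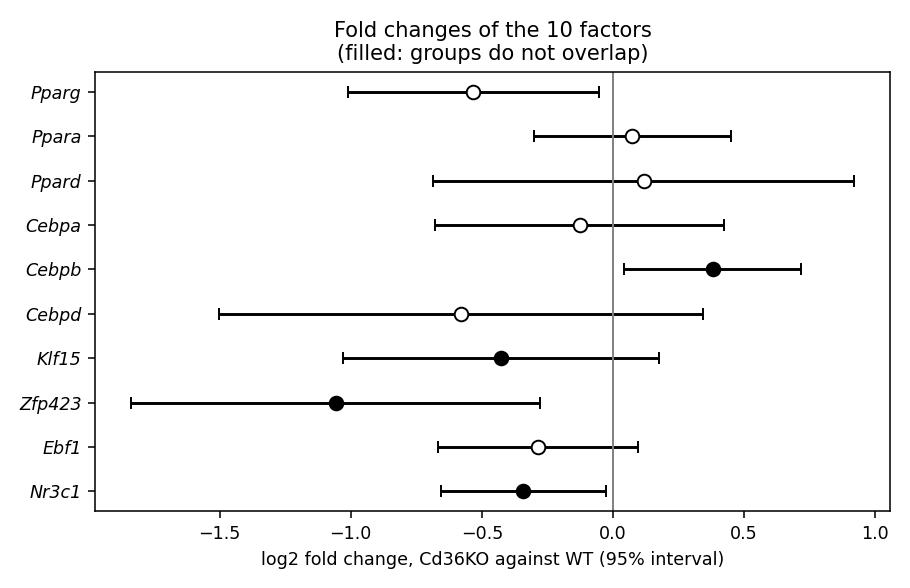
Log2 fold change of each factor in Cd36KO against WT from DESeq2 (points) with its unadjusted 95% interval (bars). Filled points mark the 4 factors whose groups did not overlap, and the interval excluded 0 for Zfp423, Pparg, Nr3c1 and Cebpb, none of which passed after adjustment over all genes.

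The C/EBP genes, each on 1 exon, encode basic leucine zipper factors. Cebpa (ENSMUSG00000034957, chromosome 7, 35119293 to 35121928, plus strand), which sustains Pparg in mature adipocytes, had the highest level of the 10, both in counts and per kilobase of exon. Its normalized counts were 734, 1486, 1731 and 2471 in WT replicates 1 to 4. The unnumbered Cd36KO library had 1470, and replicates 2 to 4 had 1458, 1702 and 1252. The SD was 44.6% of the mean in WT and 12.5% in Cd36KO, and all Cd36KO values lay inside the WT range. Its log2 fold change was -0.13 (SE 0.28, DESeq2 adjusted p = 0.888). It was -0.37 without WT replicate 1 and 0.16 without WT replicate 4, so its direction rested on WT replicate 4. In WT replicate 1, where Cebpa was lowest, the summed level of the skeletal muscle markers was 56982 normalized counts, while WT replicates 2 to 4 had 747 to 12240, and with the muscle score as a covariate the log2 fold change of Cebpa was -0.36 (DESeq2 adjusted p = 0.643).

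Cebpb (ENSMUSG00000056501, chromosome 2, 167688915 to 167690418, plus strand), an early activator of the adipogenic programme, was the only factor with all 4 values higher in Cd36KO. Its normalized counts were 200.4, 163.9, 163.5 and 147.4 in WT. They were 223.9 in the unnumbered Cd36KO library and 220.9, 200.5 and 233.4 in replicates 2 to 4. WT replicate 1 and Cd36KO replicate 3 nearly met, and with TMM factors in place of the size factors the groups overlapped. The means were 169 ± 22.4 and 220 ± 13.9 (SD, n = 4 each), a difference that DESeq2 put at 0.38 on the log2 scale (SE 0.17, 95% interval 0.04 to 0.72, DESeq2 adjusted p = 0.240, two-sided exact permutation p = 0.0286, which is the lowest that 4 against 4 can reach). Of the annotated exon of Cebpb, 312 bases overlap exons of Tmem189 on the opposite strand, and the strand setting of the counting is not given in the sources used here. Tmem189 averaged 49.5 ± 16.4 in WT libraries and 47.5 ± 21.1 in Cd36KO libraries (normalized counts, SD, n = 4 each).

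Cebpd (ENSMUSG00000071637, chromosome 16, 15887286 to 15891031, plus strand), its partner in the early phase, had few reads, and 562 bases of its exon overlap exons of Spidr on the opposite strand. Spidr had 8.57 ± 2.73 normalized counts in WT libraries and 4.76 ± 2.38 in Cd36KO libraries (SD, n = 4 each), with the nearest libraries of the groups at 6.92 and 6.90, and was given no adjusted p (log2 fold change -0.89, SE 0.68). The WT libraries had 25.3, 22.9, 8.23 and 20.8 normalized counts. The Cd36KO libraries had 12.3, 12.7, 9.21 and 17.5, with WT replicate 3 below all of them. The log2 fold change was -0.58 (SE 0.47, DESeq2 adjusted p = 0.603), and the interval from 0.353 to 1.27 times the WT level left the direction unresolved at this depth. Both libraries under 10 normalized counts, WT replicate 3 and Cd36KO replicate 3, also had the lowest muscle marker sum of their group, at 747 and 198. The unnumbered Cd36KO library, with the highest Cd36KO muscle sum of 8289, and Cd36KO replicate 2, with a sum of 209, each had 11 Cebpd reads. Cd36KO replicate 4, the highest of its group in Cebpd, had a muscle sum of 1476. With the muscle score as a covariate, the log2 fold change of Cebpd was 0.04. The part of attached muscle in the Cebpd values was not tested. In counts per kilobase of exon, under the same assumption, Cebpb was at 129 and Cebpd at 4.30. Both were under Cebpa at 583, as on the plain counts.

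The factors of the progenitor stage were Zfp423 and Ebf1. Zfp423 (ENSMUSG00000045333, chromosome 8, 87661810 to 87959595, minus strand), a zinc finger protein that commits progenitors to the fat lineage and is known to hold back thermogenic genes in white adipocytes, had the largest log2 fold change of the 10 in size. Its normalized counts were 28.0, 43.3, 50.6 and 47.5 in WT. They were 22.3 in the unnumbered Cd36KO library and 6.90, 27.6 and 23.6 in replicates 2 to 4. The groups did not overlap, but WT replicate 1 and Cd36KO replicate 3 were 0.367 normalized counts apart. The means were 42.3 ± 10.02 and 20.1 ± 9.09 (SD, n = 4 each), a difference that DESeq2 put at -1.06 on the log2 scale (SE 0.40, 95% interval -1.84 to -0.28, DESeq2 adjusted p = 0.130, edgeR adjusted p = 0.176, two-sided exact permutation p = 0.0286). These values rest on 31 to 51 reads in WT and 6 to 31 reads in Cd36KO libraries. The lowest value, from the 6 reads of Cd36KO replicate 2, moved the estimate most among single libraries, to -0.78 when left out. With the replicate block on the 3 numbered pairs it was -1.42, against -1.26 in the same 6 libraries with no block.

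White fat markers were also lower in the Cd36KO libraries. Of these 12, 7 had an adjusted p and all 7 fell in Cd36KO, and the 12 summed to 740 to 4382 normalized counts in WT and 440 to 689 in Cd36KO. WT replicate 1 had the lowest WT value of both Zfp423 and the white fat sum, and without it the log2 fold change of Zfp423 was -1.21. Hoxc10, Tcf21 and Wt1 of that list were at 0 in all 8 libraries. The 8 markers of adipose stromal progenitors, which are also known to express Zfp423, summed to 1061 to 1278 in WT and 998 to 1215 in Cd36KO, and none of the 6 with an adjusted p passed. The 6 markers of vascular smooth muscle and pericytes summed to 939 to 1622 in WT and 812 to 1193 in Cd36KO. The part of attached white fat, of progenitor number or of other cell types in the Zfp423 values was not tested.

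Ebf1 (ENSMUSG00000057098, chromosome 11, 44617317 to 45008091, plus strand), an early B-cell factor that acts upstream of Pparg and Cebpa, was well expressed. It had 872, 808, 781 and 580 normalized counts in WT. It had 507, 570, 809 and 608 in Cd36KO, where replicate 3 reached the WT values and the others lay near or below WT replicate 4. Ebf1 had a log2 fold change of -0.29 (SE 0.19, DESeq2 adjusted p = 0.509), and the interval ran from 0.630 to 1.07 times the WT level. Leaving out single libraries gave -0.43 (without Cd36KO replicate 3) to -0.20 (without the unnumbered Cd36KO library).

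Nr3c1 and Klf15 belong to the glucocorticoid arm of adipogenesis, as the receptor and as a factor that it induces. Nr3c1 (ENSMUSG00000024431, chromosome 18, 39410545 to 39519421, minus strand) had 241, 220, 206 and 212 normalized counts in WT. It had 164, 173, 190 and 167 in Cd36KO. Its SD was only 7.01% of the mean in WT and 6.80% in Cd36KO, and 15.6 normalized counts lay between the nearest libraries of the groups. The log2 fold change was nevertheless modest, at -0.34 with a standard error of 0.16 (95% interval -0.66 to -0.03, DESeq2 adjusted p = 0.261, two-sided exact permutation p = 0.0286). It stayed between -0.39 and -0.29 whichever library was left out. Klf15 (ENSMUSG00000030087, chromosome 6, 90462576 to 90475238, plus strand), a Krüppel-like factor that activates Pparg and the glucose transporter GLUT4, had 32.5, 34.0, 38.8 and 42.5 normalized counts in WT. It had 27.9, 29.9, 29.7 and 22.9 in Cd36KO, and the groups were 2.58 normalized counts apart. Its log2 fold change was -0.43 (SE 0.31, DESeq2 adjusted p = 0.534, two-sided exact permutation p = 0.0286).

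**Figure D3:**
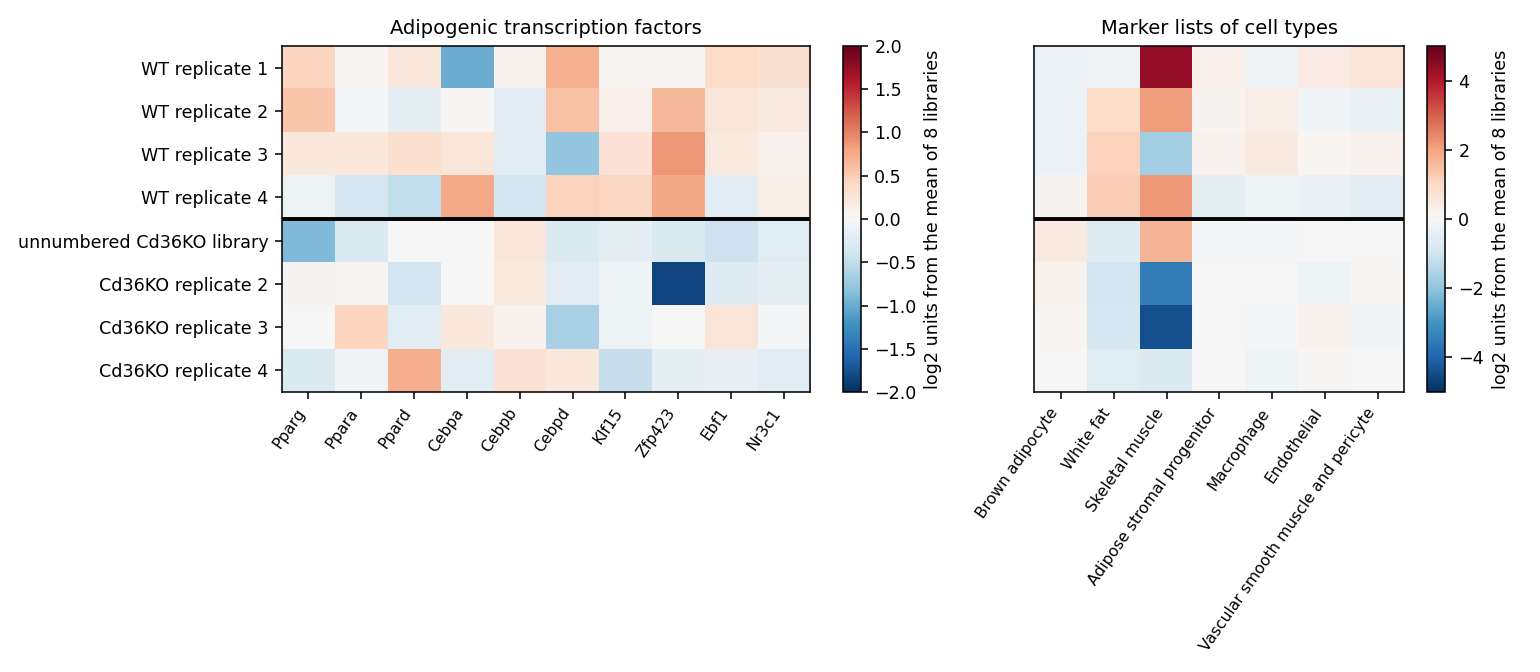
Deviation of each library from the mean of all 8, in log2 units, for log2(normalized count + 1) of the 10 factors (left) and for the mean of the same value over 7 marker lists of cell types (right, on a wider colour scale). WT libraries are above the black line, and the skeletal muscle list varies most, with WT replicate 1 highest and Cd36KO replicate 3 lowest.

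The genes whose pattern over the 8 libraries was closest to that of Pparg and of Zfp423, the factor with the lowest p, were found by the root mean square difference of centred log2 values. For Pparg, whose own values deviated by 0.42 log2 units, they were Smc3 at a difference of 0.09, Rpl35 at 0.12 and Klf6 at 0.13, out of 5526 genes. Rpl35 belongs to the ribosomal protein genes, whose processed copies can share reads, and such sharing was not examined for its value. Klf6, a Krüppel-like factor that favours adipogenesis, had a log2 fold change of -0.50 (DESeq2 adjusted p = 0.216). For Zfp423, which deviated by 0.81, the nearest genes were Ldah, Ubap1 and Ccl6 at 0.42, 0.42 and 0.44. Only genes averaging at least 50 normalized counts were searched, and Zfp423 itself averaged 31.2.

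The partners and targets of the factors were read from 6 lists of 109 genes in all. Of 19 RXR partners and co-regulators, all with an adjusted p, 1 fell and 0 rose, and their median log2 fold change was -0.04. The gene that fell was Nrip1, which encodes the co-repressor RIP140 of nuclear receptors. It had 363, 499, 530 and 398 normalized counts in WT. It had 215, 280, 229 and 202 in Cd36KO, all under the lowest WT value. Nrip1 had a log2 fold change of -0.95 (SE 0.19, DESeq2 adjusted p = 2.08e-04). RIP140 is known to repress oxidative genes in adipocytes, Ucp1 among them, and binds PPARs and RXR. Its edgeR adjusted p was 0.0621, and it passed in 15 of 17 alternatives.

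Of 14 tested genes among 16 other pro-adipogenic transcription factors, Klf9 alone fell and none rose, with a median log2 fold change of -0.18 over the list. Klf9, which is induced by glucocorticoids and acts on the Pparg promoter, fell from a WT mean of 1335 ± 35.4 normalized counts to 979 ± 104 in Cd36KO (SD, n = 4 each) with no overlap. Its log2 fold change was -0.45 (SE 0.13, DESeq2 adjusted p = 0.0304), and it passed in 6 of 17 alternatives. Of 14 anti-adipogenic factors, 12 had an adjusted p and 0 passed in either direction, with a median of 0.17. Their point estimates were positive for 6 and negative for 6. The most abundant of them were Foxo1, which represses Pparg, at 536 ± 135 in WT and 735 ± 140 in Cd36KO, and Ctnnb1, which encodes β-catenin of the Wnt pathway, at 495 ± 69.4 and 648 ± 99.0 (SD, n = 4 each).

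**Figure D4:**
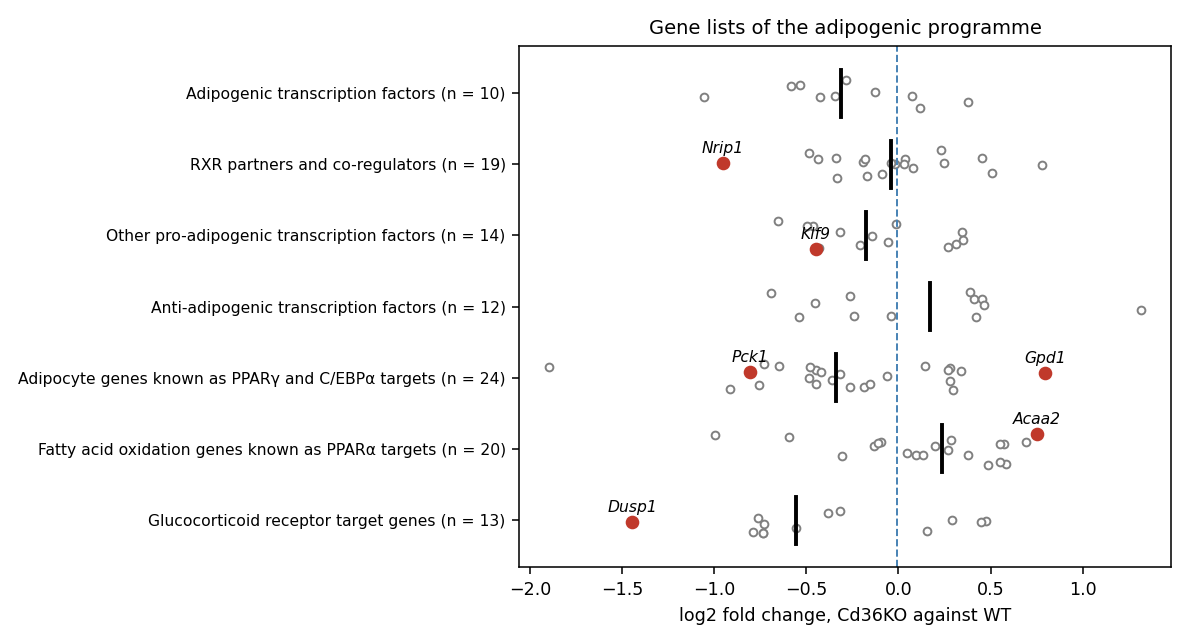
Log2 fold change in Cd36KO against WT of each gene with an adjusted p, for the 10 factors and 6 lists of partners and targets. Red points passed the DESeq2 threshold, black bars are the medians, from -0.56 for glucocorticoid receptor targets to 0.24 for PPARα targets, and the dashed line is the median of all genes tested.

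The targets of PPARγ and C/EBPα and those of PPARα had medians of opposite sign. Of 24 adipocyte genes known as targets of PPARγ and C/EBPα, 1 rose and 1 fell, 17 had negative point estimates, and the median log2 fold change was -0.34. Cd36, which the labels name as deleted, is itself 1 of these 24 genes, with a log2 fold change of -0.48. Pck1, whose enzyme acts early in the route from gluconeogenic precursors to glycerol 3-phosphate in fat, was the gene that fell. Its WT mean was 2383 ± 479 normalized counts, against 1362 ± 362 in Cd36KO (SD, n = 4 each, log2 fold change -0.81, DESeq2 adjusted p = 0.0231). Gpd1, whose enzyme forms glycerol 3-phosphate itself, rose from 6206 ± 1744 to 10771 ± 3397 (SD, n = 4 each, log2 fold change 0.80, DESeq2 adjusted p = 0.0386), although WT replicate 4 exceeded the lowest 2 Cd36KO libraries. Of the 6 lists, the calls in this one varied most as single libraries were left out. With WT replicate 1 left out, 8 of its genes passed, and without WT replicate 2, WT replicate 3 or the unnumbered Cd36KO library, 0 did.

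Of 22 fatty acid oxidation genes known as PPARα targets, 20 had an adjusted p, 1 rose and 0 fell, 14 had positive point estimates, and the median log2 fold change was 0.24. The gene that rose was Acaa2, the mitochondrial thiolase of the last step of β-oxidation, with 4678, 5513, 5548 and 5916 normalized counts in WT. It had 10039, 7321, 9830 and 9251 in Cd36KO, all above the WT values. Its log2 fold change was 0.75 (SE 0.15, DESeq2 adjusted p = 2.36e-04, edgeR adjusted p = 0.104), and it passed in 15 of 17 alternatives. Of the 10 brown adipocyte markers, 4 were called higher (Cidea, Ucp1, Cox7a1 and Cox8b) and 0 lower, and 2 had negative point estimates. Their mean log2 level overlapped between the groups, at 9.07 to 9.51 in WT and 9.33 to 9.83 in Cd36KO, while their sums, which the most abundant genes dominate, were 20408 to 26289 normalized counts in WT against 33838 to 43136 in Cd36KO. Their part in the values of Acaa2 and Nrip1 was not tested. Of 14 glucocorticoid receptor targets, 13 had an adjusted p, 1 fell and 0 rose, and the median was -0.56. Dusp1, a phosphatase of MAP kinases that is also an immediate early gene, fell from a WT mean of 56.2 ± 21.8 normalized counts to 20.7 ± 5.86 in Cd36KO (SD, n = 4 each, log2 fold change -1.44, DESeq2 adjusted p = 0.0157), with WT replicate 3 at 25.9 close to the highest Cd36KO value of 25.2. It passed in 6 of the 12 alternatives that gave it an adjusted p, and was given none in the other 5. The alternatives where it did not pass were edgeR, limma, the muscle score, both fits of the numbered pairs and the fit without the unnumbered Cd36KO library. Neither edgeR nor limma called any gene of the 6 lists, and the background of each count is the 1.42% of genes that DESeq2 called higher and the 1.53% that it called lower. That near-even split changed as libraries were left out, to 20 higher and 93 lower without the unnumbered Cd36KO library and to 328 higher and 170 lower without WT replicate 4.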

How the data were processed

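The authors' methods name bbduk for trimming the single-end reads of a digital mRNA-seq service, STAR for alignment to mm10 (the same build as GRCm38) and HTSeq-count for counting by gene. The submitters' processing notes list Trimmomatic and HISAT2 instead. The deposited values used here are whole-number counts, not normalized. A second deposited table holds log2 values, which were checked to be log2(normalized count + 1) with DESeq2 size factors. It served for an alternative test. Symbols and positions came from GENCODE M21, in which 30934 of 31053 identifiers matched.

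DESeq2 1.42.0 (Wald test, genotype as the only term, default independent filtering) in R 4.3.3 was fitted to all genes and 8 libraries, with Benjamini-Hochberg adjustment over all genes and a threshold of 0.05. Intervals are the estimate plus or minus 1.96 standard errors. edgeR 4.0.16 (quasi-likelihood, TMM, filterByExpr) and limma 3.58.1 were alternatives. Exact two-sided permutation tests (SciPy 1.17.1) compared mean log2(normalized count + 1). The functions were tested on simulated data. Members and lists were chosen with earlier results of these data known. Named genes are the 10 factors, Cd36, Ucp1, Adipoq, list genes past the threshold (at most 4 a direction, otherwise the 2 most abundant) and the nearest 3 patterns. Tmem189 and Spidr, which overlap Cebpb and Cebpd, and the brown markers called higher were named outside this rule, after their values were seen. The marker lists held 10 brown adipocyte, 12 white fat, 14 muscle, 8 progenitor, 11 macrophage, 10 endothelial and 6 mural genes. The brown list had 4 genes called higher and the white fat list 7 called lower. None was called in the muscle list, whose median log2 fold change was nevertheless -2.92, or in the progenitor, macrophage, endothelial and mural lists, with medians from -0.18 to -0.03.

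Libraries with the same number are different mice that no label ties together. Nothing states that the replicates were littermates or were processed apart, and every pair within a group differed beyond sampling noise (lowest chi-square 6.43 per degree of freedom). Total counts of 2679785 to 4097953 put the floor of 3 counts at 2.29 to 3.53 normalized counts. Intervals rest on the DESeq2 standard error, for which the dispersion of a gene is drawn towards a trend over all genes. They are thus not the observed spread of that gene between libraries.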

Additional observations from a re-analysis of the deposited data

How the results depend on the processing

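None of the 10 factors passed in the 142 of 170 alternative fits of single factors that gave an adjusted p. Ppard, Cebpd, Klf15 and Zfp423 were given none in 7 of the 17 alternatives (independent filtering tuned to 0.05, the muscle score, and without WT replicate 2, WT replicate 4 or Cd36KO replicate 2, 3 or 4), so whether they would pass there is not known. The lowest adjusted p obtained was 0.0756, for Zfp423 without WT replicate 1. The sign was kept in 163 of the 170 fits, and 6 factors kept it throughout. The log2 fold change of Ppara was reversed to -0.20 with the muscle score as covariate, to -0.022 without WT replicate 4 and to -0.078 without Cd36KO replicate 3. That of Ppard was reversed to -0.02 without WT replicate 4 and to -0.20 without Cd36KO replicate 4, in a range from -0.20 to 0.249 over numbered libraries left out. That of Cebpa was reversed to 0.16 without WT replicate 4, in a range from -0.367 to 0.157, and that of Cebpd to 0.0365 with the muscle score. The cause of these changes was not tested.

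DESeq2 called 284 genes in all and 6 of the 109 list genes. edgeR called 14 and 0, limma on the deposited log2 values 8 and 0, and DESeq2 with independent filtering off called 171 genes. The muscle score gave 188 genes. A target of 0.05 for independent filtering, chosen after the data were seen, gave 8 list genes and an adjusted p of 0.0475 for Cd36. Leaving out each library in turn gave from 70 to 498 genes (113 without the unnumbered Cd36KO library, 70 without WT replicate 2 and 498 without WT replicate 4), from 2 to 14 list genes (14 without WT replicate 1, 2 without WT replicate 2 or the unnumbered Cd36KO library) and from 1018 to 1800 genes whose groups did not overlap (1018 without the unnumbered Cd36KO library and at least 1097 for each numbered library left out), the higher counts coming with fewer libraries to separate. At an unadjusted p under 0.05, 1 to 5 of the 10 factors were found in these fits, 1 with the replicate block and 2 in the same 6 libraries with no block. Cd36 passed without WT replicate 4 (-0.56) and with the muscle score (-0.66).

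Replicate numbers 2, 3 and 4 occur in both groups. Deviations of same-numbered libraries correlated at -0.13, 0.42 and 0.14, and 3 of the 6 libraries correlated best with their own number in the other group. No label ties these libraries together and the correlation was not positive in every pair, so they were not treated as pairs, although the values do not show that numbers 3 and 4 share nothing. When a replicate block was fitted to the 3 pairs, 221 genes, 9 list genes and 0 of the factors passed, against 262, 11 and 0 in the same 6 libraries with no block. The genes called split into 32 higher and 189 lower with the block and 48 and 214 without it, against 137 and 147 in all 8 libraries. Ppard, Cebpd, Klf15 and Zfp423 had 6 to 51 reads per library, which limits what their values can show.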
